A study of Mus musculus with 4 samples.

Results

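The genes of the standard proteasome were examined in J558 allografts from mice given vehicle or TAK-931. Members were all gene symbols that start with Psm, then a letter from a to g and a digit, without the immunoproteasome subunits Psmb8, Psmb9 and Psmb10. This rule found 47 of the 24421 gene symbols, and 45 of them passed the filter on low counts. J558 is a mouse plasmacytoma line, labelled as a B lymphocyte, which was injected under the skin of the right flank of female BALB/c mice with a normal immune system. The tumours therefore hold J558 cells of 1 line together with immune and stromal cells of the host. Both groups carried the same tumour cells and were sampled on day 6. The vehicle mice received 0.5% methylcellulose by mouth, and the TAK-931 mice received 60 mg/kg of TAK-931 by mouth once daily. TAK-931 inhibits CDC7, a kinase needed to start DNA replication. Each group had 2 libraries of bulk RNA, named Vehicle-1, Vehicle-2, TAK-931-1 and TAK-931-2, each from an independent allograft.

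The proteasome is the main protease of the cytosol and nucleus and degrades proteins that carry ubiquitin chains. Its core is a barrel of stacked rings. Alpha subunits form the outer rings and the gate, and beta subunits form the inner rings that hold the protease sites. The regulatory particle binds the barrel end, where ATPases unfold the substrate and non-ATPase subunits bind and remove ubiquitin. Activators such as PA28 and PA200 can bind the same ends, and dedicated chaperones assemble the core and the base. Plasma cells make large amounts of antibody and are known for their sensitivity to proteasome inhibitors.

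Library depth was between 16487902 and 19589339 counts, and levels are given as CPM, counts scaled to a common library size with TMM factors, which correct for library composition. All 8 plasma cell markers were detected in every library, with a summed level of 9717 and 10286 CPM in the vehicle libraries, while TAK-931-1 had 4801 and TAK-931-2 had 13646 CPM. Jchain, the antibody joining chain, made up 8124 CPM of the last sum, and Irf4 1671 CPM. Of the 8 markers, 3 (Xbp1, Sdc1 and Mzb1) were lower without overlap and 5 overlapped, with a median log2 fold change of −0.36. These 3 were 64.4%, 65.2% and 64.7% below the vehicle mean in TAK-931-1, but 8.2%, 15.3% and 3.6% in TAK-931-2. Among all genes tested, 32.7% were lower and 30.0% were higher without overlap. All 12 leukocyte markers had higher levels in both TAK-931 libraries than in both vehicle libraries. Their sum was 338 and 281 CPM in the vehicle libraries, while TAK-931-1 had 5902 and TAK-931-2 had 908 CPM. The stromal list was higher without overlap for 5 of 6 markers, with 2029 and 2285 CPM against 14947 and 5214 CPM in TAK-931-1 and TAK-931-2. The 4 skeletal muscle markers summed to 75.7, 79.0, 505 and 8.34 CPM in Vehicle-1, Vehicle-2, TAK-931-1 and TAK-931-2. TAK-931-1 had the lowest plasma cell sum and the highest leukocyte, stromal and muscle sums, and TAK-931-2 had the highest plasma cell and the lowest muscle sum. The counts over all members, the median log2 fold changes of the members and of each subcomplex, and the immunoproteasome ratios are also given without TAK-931-1. None of these markers had 0 counts in any library. In bulk tumour RNA, fewer cells of a type and less RNA per cell cannot be told apart, and the part of cell makeup in the results was not tested.

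To ask whether proteasome genes differed with treatment, edgeR's quasi-likelihood test was run across 13669 genes. Most members had lower RNA levels in both TAK-931 libraries. Of the 45 tested members, 40 lay below both vehicle libraries in both TAK-931 libraries and 0 lay above both. Over all genes tested, 32.7% were lower and 30.0% were higher without overlap. Among the 7628 genes with a mean log2 CPM at or above that of the lowest tested member, 43.5% were lower without overlap, with a median log2 fold change of −0.16. A negative log2 fold change was found for 43 of 45 members, against 49.0% of all genes. The median log2 fold change of the members was −0.56, beside 0.02 for all genes tested.

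**Figure D1:**
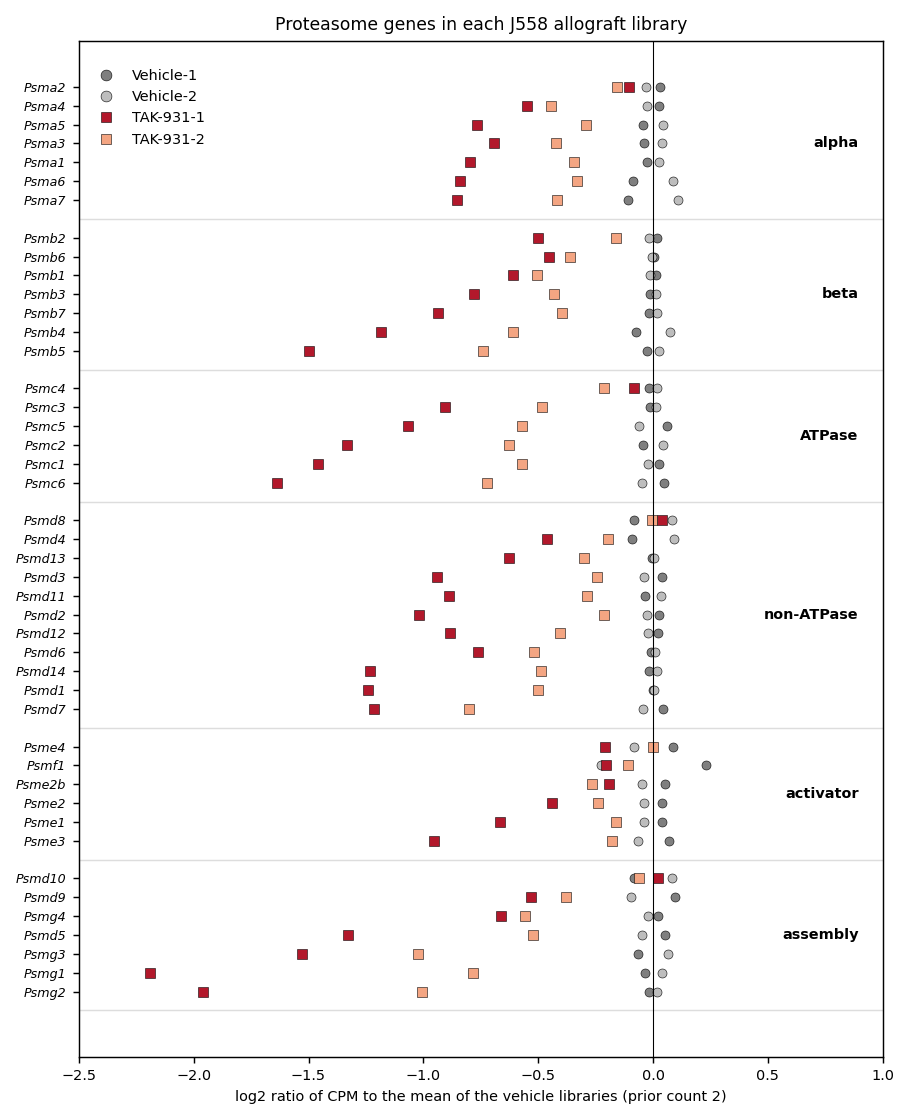
Log2 ratio of CPM to the mean of the vehicle libraries (x axis) for 44 tested proteasome genes, grouped by subcomplex, with 1 point for each library (circles for vehicle, squares for TAK-931). The vehicle points lie close to 0, most TAK-931 points lie to their left, and TAK-931-1 is the lowest library for 38 of the 44 genes.

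No member passed an adjusted p of 0.05 by edgeR, and the lowest adjusted p among the members was 0.275. No gene of the whole table passed it either (0.0%). At an unadjusted p under 0.05, 10 members were lower and 0 were higher, where 6.55% of all genes were lower and 11.6% higher. The 10 members were Psmb4, Psmb5, Psmc2, Psmc5, Psmc6, Psmd6, Psmd7, Psmg2, Psmg3 and Psmg4. DESeq2 called 2 members lower at its adjusted p of 0.05 and 0 higher, where it called 1.11% of all genes lower and 9.21% higher. Limma-voom called 0 members and 0 genes at an adjusted p of 0.05, with 16 members and 8.27% of all genes lower at an unadjusted p under 0.05. The edgeR number of 10 members became 1 without Vehicle-1, 1 without Vehicle-2, 34 without TAK-931-1 and 37 without TAK-931-2. In these fits, 0.356%, 0.459%, 22.6% and 32.1% of all genes were lower at that threshold. In the last 2 fits, the lone TAK-931 library was assumed to vary like the vehicle pair, and 30 and 37 members then passed the adjusted p, as did 28.7% and 58.1% of all genes.

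The difference was larger in TAK-931-1 than in TAK-931-2, and both exceeded the gap between the vehicle libraries for most members. The median member was 42.5% below the vehicle mean in TAK-931-1 and 24.0% below it in TAK-931-2. The vehicle libraries differed by a median of 0.08 on the log2 scale over the members, and the TAK-931 libraries by 0.45. Over all genes, these gaps were 0.16 and 0.70. The median log2 fold change of the members was −0.40 without TAK-931-1 and −0.82 without TAK-931-2. In TAK-931-2 alone, 40 of 45 members lay below both vehicle libraries, where 44.4% of all genes did. In TAK-931-1 alone, 42 of 45 did, where 47.4% of all genes did. The members had a similar order in ratios that share no library. Over 44 genes, Pearson's r was 0.772 and Spearman's rho 0.744 between the log2 ratio TAK-931-1/Vehicle-1 and the log2 ratio TAK-931-2/Vehicle-2. The other arrangement gave an r of 0.782 and a rho of 0.714. Over all 13669 genes, r was 0.509 and 0.533. These points are genes of the same 4 libraries and not independent replicates.

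**Figure D2:**
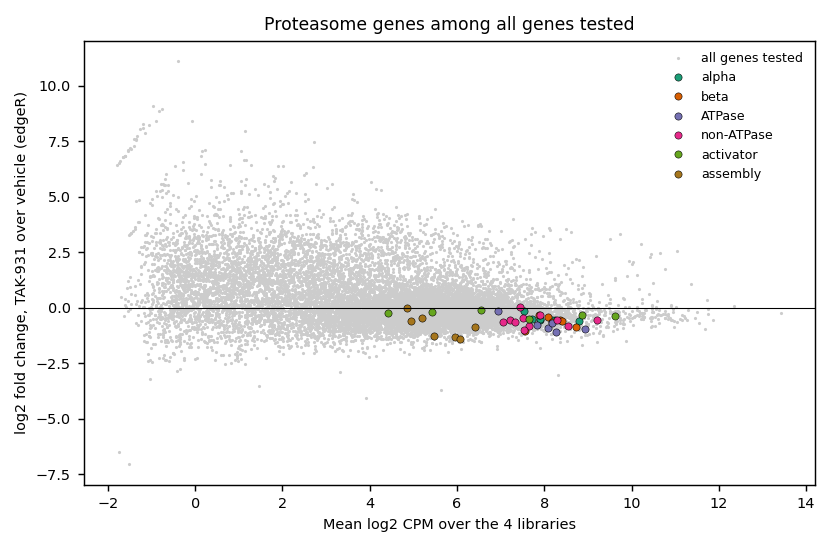
Log2 fold change of TAK-931 over vehicle by edgeR (y axis) against mean log2 CPM over the 4 libraries (x axis) for all 13669 genes tested (grey), with 44 proteasome genes coloured by subcomplex. The proteasome genes lie between −1.41 and 0.01 and their median level is at the 94.2 percentile of all genes tested.

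The alpha subunits form the outer rings of the core. All 7 tested alpha genes were lower without overlap, where 32.7% of all genes tested were, and their median log2 fold change was −0.55. It was −0.35 without TAK-931-1 and −0.79 without TAK-931-2. None had an unadjusted p under 0.05 by edgeR. Psma7 (chromosome 2, 180036367 to 180042464, mm10) encodes the alpha4 subunit and had the largest difference. Its level was 512.9 and 597.7 CPM in Vehicle-1 and Vehicle-2, while TAK-931-1 had 306.5 and TAK-931-2 had 414.5 CPM. Both TAK-931 libraries were below both vehicle libraries, and the log2 fold change was −0.62 (SE 0.27). Psma2 (chromosome 13, 14613242 to 14625673), which encodes alpha2, had the smallest difference, with 197.0 and 188.5 CPM in the vehicle libraries, while TAK-931-1 had 179.2 and TAK-931-2 had 173.0 CPM. These values did not overlap but were close, and the log2 fold change of −0.13 (SE 0.21) was within its error. The remaining alpha genes (Psma1, Psma3, Psma4, Psma5 and Psma6) were between 31.6% and 44.2% below the vehicle mean in TAK-931-1 and between 18.3% and 26.6% below it in TAK-931-2. Psma8, the form of Psma7 found in testis, had 2, 8, 18 and 6 counts in Vehicle-1, Vehicle-2, TAK-931-1 and TAK-931-2, and was under the filter.

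The beta subunits form the inner rings, and Psmb5, Psmb6 and Psmb7 carry the protease sites. All 7 tested beta genes were lower without overlap, where 32.7% of all genes tested were. Their median log2 fold change was −0.59. This median was −0.43 without TAK-931-1 and −0.80 without TAK-931-2. Psmb5 (chromosome 14, 54614120 to 54617995) encodes beta5, the chymotrypsin-like subunit that proteasome inhibitor drugs mainly target. It had 272.6 and 283.3 CPM in the vehicle libraries, while TAK-931-1 had 98.4 and TAK-931-2 had 166.2 CPM. This was the largest difference among the beta genes, at 64.6% and 40.2% below the vehicle mean, with a log2 fold change of −1.07 (SE 0.34) and an adjusted p by edgeR of 0.275. Psmb7 (chromosome 2, 38588046 to 38643906) encodes beta2, the trypsin-like subunit. It had 358.3 and 367.7 CPM in the vehicle libraries, while TAK-931-1 had 189.7 and TAK-931-2 had 275.9 CPM. Its log2 fold change was −0.64 (SE 0.29). Psmb6 (chromosome 11, 70525357 to 70527858) encodes beta1, the caspase-like subunit. It had 315.8 and 314.1 CPM in the vehicle libraries, while TAK-931-1 had 230.0 and TAK-931-2 had 244.8 CPM. The TAK-931 libraries were nearly level for this gene, with a log2 fold change of −0.41 (SE 0.22). Among the subunits without a protease site, Psmb2 (chromosome 4, 126677643 to 126709715) had the smallest difference. Its level was 265.2 and 259.0 CPM in the vehicle libraries, while TAK-931-1 had 185.0 and TAK-931-2 had 234.3 CPM. Psmb4 (beta7) was 56.0% and 34.6% below the vehicle mean in the TAK-931 libraries. Psmb1 and Psmb3 lay between these genes, at 34.6% and 41.7% below it in TAK-931-1. Psmb11, the thymus form of Psmb5, had 2 counts in total, both in Vehicle-1, and a count of 0 in the other libraries allows up to 0.316 to 0.360 CPM (3 read pairs, or 6 counts where both mates are counted).

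Under interferon, each catalytic beta subunit can be replaced by an immunoproteasome form. Psmb8, Psmb9 and Psmb10 replace Psmb5, Psmb6 and Psmb7, and they were set beside them to show where the standard subunits differed. Levels between genes are given here as CPM per kilobase of exon. The ratio of Psmb8 to Psmb5 was 0.706 and 0.610 in the vehicle libraries, 3.86 in TAK-931-1 and 1.36 in TAK-931-2. Psmb8 was thus below Psmb5 in both vehicle libraries and above it in both TAK-931 libraries. The ratio of Psmb9 to Psmb6 was 0.437 and 0.431 in the vehicle libraries, 1.69 in TAK-931-1 and 0.696 in TAK-931-2. It was higher in both TAK-931 libraries, but only in TAK-931-1 did Psmb9 exceed Psmb6. The ratio of Psmb10 to Psmb7 was 0.395 and 0.336 in the vehicle libraries, 0.746 in TAK-931-1 and 0.368 in TAK-931-2, so these groups overlapped. In exact permutation tests over the libraries, two-sided, p was 0.33 for the first and second of these ratios and 0.667 for the third. With 2 libraries against 2, the smallest possible p is 0.33. Psmb8 itself had a log2 fold change of 0.73 (SE 0.34) and Psmb9 of 1.03 (SE 0.45), while Psmb10 had −0.12 (SE 0.27), with adjusted p values by edgeR of 0.304, 0.296 and 0.796. Without TAK-931-1, the log2 difference between the groups was 1.05 for the first ratio and 0.68 for the second, where it was 1.80 and 1.32 with all libraries. For the third ratio it was 0.015 without TAK-931-1 and 0.52 with all libraries. The leukocyte markers named above were higher in both TAK-931 libraries, as were the first and second ratios. The third ratio in TAK-931-2 lay between the vehicle values. The part of leukocytes in these ratios was not tested.

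**Figure D3:**
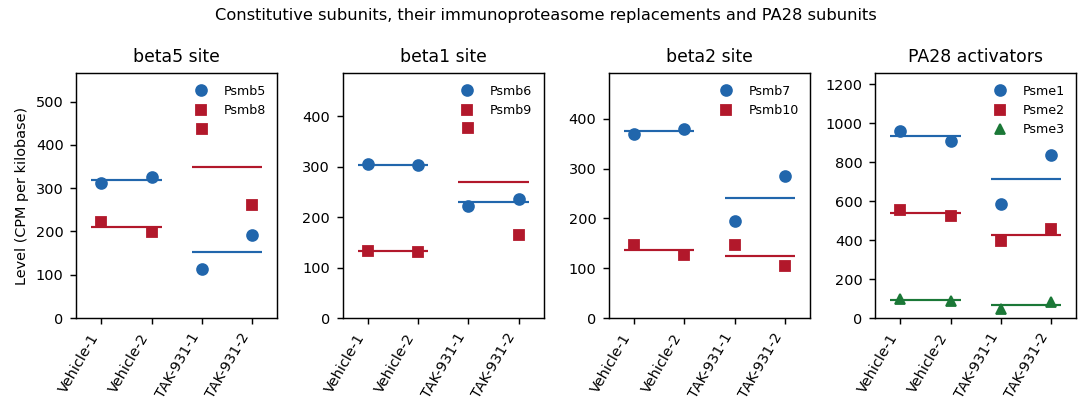
Level in CPM per kilobase of exon (y axis, from 0) of the catalytic beta subunits and their immunoproteasome forms, and of the PA28 subunits, in each library (x axis), with a line at each group mean. Psmb5 is above Psmb8 in both vehicle libraries and below it in both TAK-931 libraries, whereas Psmb7 stays above Psmb10 in all 4.

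The ATPases of the base form a ring that unfolds substrates and opens the gate of the core. All 6 ATPase genes were lower without overlap, where 32.7% of all genes tested were. Their median log2 fold change was −0.87, or −0.57 without TAK-931-1 and −1.22 without TAK-931-2. Psmc6 (chromosome 14, 45329824 to 45349071), which encodes Rpt4, had 476.0 and 445.0 CPM in the vehicle libraries, while TAK-931-1 had 147.8 and TAK-931-2 had 279.0 CPM. It was 67.9% and 39.4% below the vehicle mean, with a log2 fold change of −1.11 (SE 0.38). Psmc1 (Rpt2), Psmc2 (Rpt1), Psmc3 (Rpt5) and Psmc5 (Rpt6) were between 46.7% and 63.6% below the vehicle mean in TAK-931-1 and between 28.6% and 35.2% below it in TAK-931-2. Psmc4 (chromosome 7, 28041702 to 28050092), which encodes Rpt3, had the smallest difference. Its level was 127.8 and 130.9 CPM in the vehicle libraries, while TAK-931-1 had 122.2 and TAK-931-2 had 111.6 CPM, with a log2 fold change of −0.15 (SE 0.21). Psmc4 was also the least abundant ATPase gene per length, with 90.1 ± 1.5 CPM per kilobase in the vehicle libraries (SD, n = 2), where Psmc1 had 467 ± 10.7.

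The non-ATPase subunits make up the rest of the base and the lid. Of 11 genes, 10 were lower without overlap, where 32.7% of all genes tested were. The median log2 fold change of the 11 was −0.56. Without TAK-931-1 the median was −0.31, and without TAK-931-2 it was −0.91. Psmd7 (chromosome 8, 107580380 to 107588482), which encodes the lid subunit Rpn8, had 269.3 and 253.8 CPM in the vehicle libraries. TAK-931-1 had 112.5 and TAK-931-2 had 150.0 CPM, with a log2 fold change of −0.99 (SE 0.26). Rpn8 pairs with Rpn11, the deubiquitinase of the lid, which is encoded by Psmd14. Psmd14 was 57.4% and 28.8% below the vehicle mean in the TAK-931 libraries. Psmd1, which encodes the large base subunit Rpn2, was 57.8% and 29.3% below it. The other large base gene, Psmd2 (Rpn1), was 50.7% below it in TAK-931-1 but 13.7% in TAK-931-2. Psmd4, which encodes the ubiquitin receptor Rpn10, was 27.5% and 13.0% below it. The lid genes Psmd3, Psmd6, Psmd11, Psmd12 and Psmd13 were between 35.4% and 48.0% below the vehicle mean in TAK-931-1 and between 15.6% and 30.2% in TAK-931-2. Psmd8 (chromosome 7, 29174187 to 29180673), which encodes the lid subunit Rpn12, was the exception. It had 164.4 and 184.6 CPM in the vehicle libraries, while TAK-931-1 had 179.1 and TAK-931-2 had 173.5 CPM. Both TAK-931 values lay between the vehicle values, and the log2 fold change was 0.01 (SE 0.22).

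The activator group holds the PA28 subunits, PA200 and the regulator PI31, and its differences were smaller. Of 6 genes, 4 were lower without overlap, where 32.7% of all genes tested were. Among genes at or above the level of the lowest tested member, 43.5% were. The median log2 fold change of the 6 was −0.28. The activator median was −0.17 without TAK-931-1 and −0.40 without Vehicle-2. None had an unadjusted p under 0.05 by edgeR. Psme1 (chromosome 14, 55578494 to 55581527) and Psme2 (chromosome 14, 55587440 to 55591101) encode PA28 alpha and beta, which form 1 complex and are inducible by interferon gamma. Psme1 had 938.2 and 888.9 CPM in the vehicle libraries, while TAK-931-1 had 574.8 and TAK-931-2 had 816.7 CPM. Psme2 had 542.0 and 514.0 CPM in the vehicle libraries, while TAK-931-1 had 388.5 and TAK-931-2 had 446.4 CPM. Both were lower in both TAK-931 libraries, with log2 fold changes of −0.39 (SE 0.28) and −0.34 (SE 0.23), whereas Psmb8 and Psmb9 were higher in both. Psme3 (chromosome 11, 101316251 to 101323530) encodes PA28 gamma of the nucleus. It had 255.4 and 232.6 CPM in the vehicle libraries, while TAK-931-1 had 125.6 and TAK-931-2 had 215.5 CPM. Its log2 fold change was −0.52 (SE 0.34), and TAK-931-2 lay close to the vehicle libraries. Per length, the ratio of Psme1 to Psme3 was 9.85 and 10.2 in the vehicle libraries, 12.3 in TAK-931-1 and 10.2 in TAK-931-2. The exact permutation p of this ratio was 0.667, and that of Psme2 to Psme3 was 1. Psme4 (chromosome 11, 30771775 to 30880361), which encodes PA200, had 103.1 and 91.7 CPM in the vehicle libraries, while TAK-931-1 had 84.1 and TAK-931-2 had 97.1 CPM, so its groups overlapped. Psmf1, which encodes PI31, also overlapped between the groups. Its log2 fold change of −0.17 became 0.076 without Vehicle-1.

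Psme2b is a copy of Psme2 on chromosome 11. Their transcripts in GENCODE vM21 were identical at 789 of 794 aligned bases (99.4%), so reads from the identical stretches have no single site, and the values of both genes are uncertain. It had 404, 373, 384 and 330 counts in Vehicle-1, Vehicle-2, TAK-931-1 and TAK-931-2. Its exons also share 261 bases with the gene 9930111J21Rik1.

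The assembly group had the members with the largest differences. The median log2 fold change of its 7 genes was −0.87, or −0.56 without TAK-931-1 and −1.35 without TAK-931-2. Psmg1, Psmg2, Psmg3 and Psmg4 encode the chaperones PAC1 to PAC4, which help build the alpha ring of the core. All 4 were lower without overlap, where 32.7% of all genes tested were, and their median log2 fold change was −1.29. Psmg2 (chromosome 18, 67641599 to 67654162) measured 110.8 and 113.6 CPM in the vehicle libraries, while TAK-931-1 had 28.8 and TAK-931-2 had 55.8 CPM. Its log2 fold change was −1.41 (SE 0.38). Psmg1, which encodes the partner of PAC2, was lower still in TAK-931-1, at 78.2% below the vehicle mean, and 42.1% below it in TAK-931-2. Psmg3 (chromosome 5, 139823594 to 139826843) measured 65.9 and 72.2 CPM in the vehicle libraries, while TAK-931-1 had 23.9 and TAK-931-2 had 33.9 CPM. It was 65.4% and 50.9% below the vehicle mean, with a log2 fold change of −1.26 (SE 0.27). DESeq2 called Psmg2 (adjusted p 0.0326) and Psmg3 (adjusted p 0.0223) and no other member, whereas edgeR's adjusted p was 0.275 for both. With 1 library left out, the adjusted p by edgeR ranged from 0.00021 to 0.715 for Psmg2 and from 0.00061 to 0.818 for Psmg3, lowest without TAK-931-2. Psmg4 was 37.0% and 32.2% below the vehicle mean, the most even of the 4 between the TAK-931 libraries.

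The chaperones of the base differed among themselves. Psmd5 was 60.2% (TAK-931-1) and 30.4% (TAK-931-2) below the vehicle mean, and Psmd9 was 31.1% and 23.4% below it. Psmd10 (chromosome X, 140948425 to 140956711), which encodes gankyrin, had 27.5 and 30.8 CPM in the vehicle libraries, while TAK-931-1 had 29.6 and TAK-931-2 had 27.9 CPM. Its groups overlapped, and its log2 fold change of −0.02 (SE 0.24) became 0.026 with median-of-ratios scaling. One symbol found by the rule, Psmc3ip, encodes the meiotic recombination factor HOP2 and no proteasome subunit. It had 18.3 and 20.3 CPM in the vehicle libraries, while TAK-931-1 had 15.4 and TAK-931-2 had 23.8 CPM, which overlapped. Its exons share 67 bases with Mlx on the opposite strand.

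Levels were then summed per subcomplex, as CPM per kilobase, to compare the parts of the particle. The ATPases had 1546 and 1510 in the vehicle libraries, 668 in TAK-931-1 and 1029 in TAK-931-2, which is 43.7% and 67.4% of the vehicle mean. The beta genes had 2835 and 2912 in the vehicle libraries, 1602 in TAK-931-1 and 2082 in TAK-931-2. This was 55.8% and 72.5% of the vehicle mean. The alpha genes had 62.6% and 78.5%, and the non-ATPase genes 56.5% and 78.7%. The activators had the highest share, at 66.6% and 87.7%. The assembly group had the lowest, at 38.7% and 59.7%. In each subcomplex, TAK-931-1 was the lowest library and TAK-931-2 lay between it and the vehicle libraries. The sum over all 47 members averaged 10080 ± 65.7 in the vehicle libraries and 6662 ± 1393 in the TAK-931 libraries (SD, n = 2), a difference larger than the spread within either group.

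**Figure D4:**
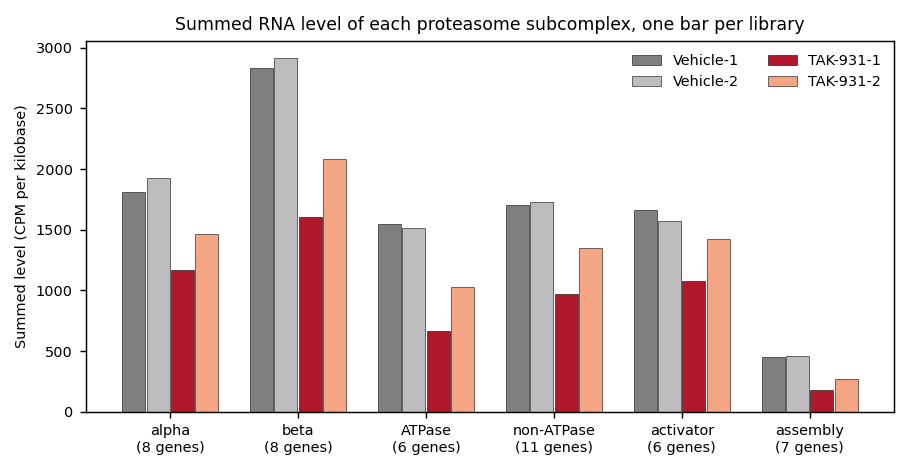
Summed level of each subcomplex in CPM per kilobase of exon (y axis, from 0), with 1 bar for each library. The vehicle bars are nearly level in each subcomplex, TAK-931-1 is the lowest in all 6, and the ATPase and assembly bars have the lowest TAK-931 levels relative to vehicle.

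Although alpha and beta subunits enter the core in equal numbers, their RNA levels per length were not equal. Over the 14 ring genes that make up the standard core, the level in Vehicle-1 ranged from 198 CPM per kilobase for Psma3 to 583 for Psmb4, a 2.94-fold range. For Vehicle-2 the range was 3.23-fold, for TAK-931-1 it was 2.93-fold and for TAK-931-2 it was 2.77-fold. In TAK-931-1, the lowest was Psmb5, at 113 CPM per kilobase, and the highest was Psmb3, at 331. Psmb5 had 313 in Vehicle-1, close to that library's median of 313 over the 14 genes.

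Promoters were read because the members had lower levels together. RefSeq windows (GRCm38.p6) were found for 39 of the 47 members, 38 of them tested, and the 250 bases before the start were searched on both strands. The motifs were TGACNNNGC, the core of the antioxidant response element bound by NRF1 and NRF2, and the CCAAT box, CCAAT. TGACNNNGC was found for 5 of 38 tested members (13.2%), namely Psmb5, Psmb6, Psmc6, Psmd9 and Psmd12. Among the 10348 tested genes with a window, 14.1% had it, and 11.5% of all genes with a window did. CCAAT was found for 13 of 38 (34.2%), against 40.3% of tested genes and 37.5% of all genes. No member had both motifs. Members with TGACNNNGC had a median log2 fold change of −0.63 and those without had −0.56. The 120 bases before the RefSeq start of 3 members with the match and of 2 without any are given 5′ to 3′ on the strand of the gene, with the match in capitals. Psmb5, Psmb6 and Psmd9 had the match closest to the start. Psmg3 had one of the largest differences between the groups, and the groups of Psmd8 overlapped.
Psmb5, chr14:54617996-54618115, minus strand: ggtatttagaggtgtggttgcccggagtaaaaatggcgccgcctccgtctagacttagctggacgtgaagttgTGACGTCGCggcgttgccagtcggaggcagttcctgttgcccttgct
Psmb6, chr11:70525237-70525356, plus strand: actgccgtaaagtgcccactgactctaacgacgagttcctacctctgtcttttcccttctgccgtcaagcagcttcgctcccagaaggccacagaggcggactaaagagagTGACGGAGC
Psmd9, chr5:123228070-123228189, plus strand: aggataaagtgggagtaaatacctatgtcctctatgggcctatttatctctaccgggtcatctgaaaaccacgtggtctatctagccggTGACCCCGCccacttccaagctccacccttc
Psmg3, chr5:139826895-139827014, minus strand: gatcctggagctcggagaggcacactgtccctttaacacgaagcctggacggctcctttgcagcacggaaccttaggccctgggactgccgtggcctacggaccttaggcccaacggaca
Psmd8, chr7:29180674-29180793, minus strand: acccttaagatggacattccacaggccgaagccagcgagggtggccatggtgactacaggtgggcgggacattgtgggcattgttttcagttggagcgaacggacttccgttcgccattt

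The match lies 47 to 39 bases before the start of Psmb5, 9 to 1 before that of Psmb6 and 31 to 23 before that of Psmd9. A match describes only these letters, and whether a factor binds there was not measured.

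The members were spread over 16 chromosomes, with 10 on chromosome 11 and 6 on chromosome 14. Of the 45 tested members, 7 started within 1000 bases of a gene that runs the other way, against 13.6% of all genes tested. Psmg2 starts 263 bases from Cep76, a centrosomal protein gene. Cep76 had 92.1 and 90.9 CPM in the vehicle libraries, while TAK-931-1 had 21.7 and TAK-931-2 had 60.7 CPM, so both TAK-931 libraries were below both vehicle libraries and TAK-931-1 was the lowest, as for Psmg2. Psmc2 starts 118 bases from Dnajc2, whose log2 fold change was −0.62, and Psmc5 383 bases from Ftsj3, with −0.60. Psma2 starts 205 bases from Mrpl32, a mitochondrial ribosome gene, which had −0.82 where Psma2 had −0.13. Psma7 starts 19 bases from Ss18l1, which had 0.62 where Psma7 had −0.62. Sirt3, beside Psmd13, had −0.05, and Rnf31, beside Psme2, had −0.14.

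Other genes of the pathway were taken from a fixed list of 33, of which 32 were in the tables and tested. Apart from the 3 immunoproteasome genes, 18 of 29 were lower without overlap, 2 were higher and 9 overlapped, with a median log2 fold change of −0.33. Over all genes, 32.7% were lower and 30.0% higher without overlap. At an unadjusted p under 0.05 by edgeR, 2 of the 29 were lower and 0 were higher, where 6.55% and 11.6% of all genes were, and 0 passed the adjusted p. The largest negative difference was that of Txnl1, a thioredoxin-like protein bound to the regulatory particle. Txnl1 had 365.5 and 384.5 CPM in the vehicle libraries, while TAK-931-1 had 119.4 and TAK-931-2 had 243.3 CPM. Adrm1, a ubiquitin receptor of the particle outside the naming rule, had 323.6 and 325.0 CPM in the vehicle libraries, while TAK-931-1 had 142.8 and TAK-931-2 had 236.1 CPM. Its groups did not overlap, and TAK-931-1 was the lowest library. Shfm1, the gene for the small lid subunit Sem1, had 98.2 and 101.1 CPM in the vehicle libraries, while TAK-931-1 had 145.6 and TAK-931-2 had 96.0 CPM. Pomp, the chaperone of beta ring assembly, had 191.8 and 190.1 CPM in the vehicle libraries, while TAK-931-1 had 213.5 and TAK-931-2 had 162.1 CPM. Both overlapped between the groups, in contrast to the Psmg chaperones.

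Of the transcription factors that act on proteasome genes, one had lower and one higher levels. Nfe2l1 encodes NRF1, which raises proteasome genes when proteasome activity is short. It had 262.6 and 223.9 CPM in the vehicle libraries, while TAK-931-1 had 190.7 and TAK-931-2 had 177.3 CPM. Its log2 fold change was −0.40 (SE 0.23), and both TAK-931 libraries were lower. Nfe2l2, which encodes the oxidative stress factor NRF2, was the largest positive difference outside the immunoproteasome. It had 46.3 and 45.7 CPM in the vehicle libraries, while TAK-931-1 had 105.9 and TAK-931-2 had 57.9 CPM, with a log2 fold change of 0.83 (SE 0.36) and an adjusted p by edgeR of 0.289. Ngly1, whose glycanase acts on NRF1, had 51.2 and 42.6 CPM in the vehicle libraries, while TAK-931-1 had 27.9 and TAK-931-2 had 28.5 CPM. Zfand2a, a stress-induced protein of the particle, was the other gene higher without overlap, with 26.0 and 32.3 against 42.1 and 44.4 CPM.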

How the data were processed

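RNA from 4 J558 allografts was measured. The deposited tables give raw counts per gene, made by the authors with STAR 2.6.1c and featureCounts on mm10 per the submitters' processing notes, with no normalization. Per their column names, only reads placed at a single site were counted. Annotation, strand setting and the counting of read pairs were not given in the sources used here. Each table also gives, as another deposited value, the summed exon length in bases. Of counts from 1 to 20, between 17.9% and 23.9% were odd, so both mates appear to be counted and counting error exceeds what the counts imply. A count of 0 was taken to allow up to 3 read pairs, or 6 counts, for counting error only.

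Genes were kept with filterByExpr (minimum count 10) and scaled by TMM. Groups were compared by edgeR 4.0.16 (R 4.3.3), robust quasi-likelihood, two-sided, with Benjamini-Hochberg adjustment over 13669 genes at 0.05. SEs follow from the F statistic. Log2 ratios between libraries used a prior count of 2. CPM per kilobase divides CPM by exon length. Alternatives were other scalings and filters, DESeq2 1.42.0, limma-voom (3.58.1), no robust estimation, a replicate block, halved counts, a prior count of 0.5, adjusted p under 0.01 and each library left out. The edgeR test was run on simulated counts with equal spread in both groups, which does not cover the unequal spread of these libraries. Members and lists were chosen with earlier results of these data known. Genes were named by a rule: the largest and smallest log2 fold change per subcomplex, the catalytic beta and the PA28 and PA200 genes, and Pomp, Adrm1, Nfe2l1, Nfe2l2, Psmb8 to Psmb10 and the largest change each way in the pathway list. Shfm1, Ngly1, Zfand2a, the neighbouring genes and the other members named were added after their values were seen. The labels give independent allografts per group. The edgeR p-values rest on 1 estimate of the spread between allografts, shared by both groups.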

Additional observations from a re-analysis of the deposited data

How the results depend on the processing

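By edgeR, 0 genes and 0 members passed the adjusted p of 0.05 with all 4 libraries, under every scaling and filter tried, without robust estimation and with halved counts, and 0 passed 0.01. DESeq2 called 1411 genes and 2 members. With library sizes only, 4 members and 4.49% of all genes were lower at an unadjusted p under 0.05, where limma-voom gave 16 and 8.27%. The replicate numbers carry no stated pairing, and same-numbered libraries deviated together with an r of 0.004. With the replicate number as a block, 144 genes and 0 members passed the adjusted p, and Psmc3ip had a log2 fold change of −0.0070.

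When 1 library was left out, the genes called ranged from 0 to 8424 and the members from 0 to 37, and the members lower at an unadjusted p under 0.05 from 1 to 37. The number of members higher without overlap ranged from 0 to 2, where 34.2% to 46.1% of all genes were higher, and the number lower from 40 to 42, where 36.8% to 47.4% were lower. Median log2 fold changes ranged from −0.82 to −0.40 for all members, −0.79 to −0.35 for alpha, −0.80 to −0.43 for beta, −1.22 to −0.57 for ATPase, −0.91 to −0.31 for non-ATPase, −0.40 to −0.17 for activator and −1.35 to −0.56 for assembly genes. With a lone library, that library was assumed to vary like the other group. The causes of these shifts were not tested.

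Direction turned under at least 1 setting for Psmd10, Pomp, Psmd8, Psmc3ip, Psmf1, Psmb10 and Shfm1, whose log2 fold changes as reported lay between −0.17 (Psmf1) and 0.28 (Shfm1). Psmd10 had a log2 fold change of 0.026 with median-of-ratios scaling and DESeq2, 0.051 with at least 10 counts in every library and 0.0075 with halved counts. Pomp had 0.024, 0.024, 0.052 and 0.0091 under the same settings. Psmd8 had −0.012 without a filter, and Psmc3ip −0.021 by limma-voom. Leaving out 1 library gave −0.35 to 0.30 for Psmc3ip, −0.41 to 0.076 for Psmf1, −0.064 to 0.078 for Psmd8, −0.099 to 0.039 for Psmd10, −0.39 to 0.073 for Psmb10, −0.24 to 0.14 for Pomp and −0.056 to 0.52 for Shfm1.

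Each group had 2 libraries, and the biological coefficient of variation was 0.436, with 0.132 in the vehicle pair and 0.579 in the TAK-931 pair.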
